A study of Homo sapiens with 8 samples.

Results

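The 60 genes described here drive mitosis: its kinases and cyclins, the kinesin motors of the spindle, the kinetochore, the spindle checkpoint, the chromosomal passenger complex, condensin and the proteins that split the cell. They were taken by gene symbol from the read count table, which holds 31710 genes, and all 60 were among the 16972 genes that had enough reads to test. They were followed in Hep3B and Huh7, established lines grown from human hepatocellular carcinoma. Hep3B lacks p53 and Huh7 carries a mutant p53, so neither line has the normal form of the protein that holds damaged cells out of division.

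Poly(A) RNA was sequenced from 4 treatments of each line, with 1 library per line and treatment, 8 libraries in all. The groups were both drugs (10 days of XL413, then 24 hours of sertraline), sertraline alone for 24 hours, XL413 alone for 10 days, and a control for which no agent is named. XL413 inhibits CDC7, the kinase that fires replication origins, and the long pretreatment was given to make the cells senescent. Sertraline is an antidepressant that blocks serotonin reuptake. Doses are not given in the labels. The question of the study was how gene expression differs among these treatments.

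CDK1 bound to cyclin B starts mitosis, the Aurora and Polo-like kinases build the spindle, and the anaphase promoting complex with CDC20 ends it by destroying cyclin B and securin. Most of these genes are transcribed together late in the cell cycle, when MYBL2 and FOXM1 act with the MuvB core at their promoters, and are silent in cells that have left the cycle. Their RNA in a culture therefore depends on how many cells are near mitosis. In bulk RNA, fewer cells in mitosis and less of these RNAs per cell cannot be told apart.

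Libraries held 20275392 reads (Hep3B with XL413) to 30842770 reads (Hep3B with both drugs) assigned to genes. Levels are given in CPM, read counts relative to library size as scaled by the trimmed mean of M values (TMM), and are not divided by gene length unless stated. Liver markers were high in every library: 9 hepatocyte genes, albumin and alpha-fetoprotein among them, summed to 30040 to 51430 CPM. Over all 8 libraries the immune marker list summed to 45.3 to 482 CPM, nearly all of it LYZ, with PTPRC at 7 reads or fewer. The fibroblast list summed to 25.1 to 246 CPM, with DCN at 3 reads or fewer and LUM at up to 837, and the endothelial list to 0.665 to 6.61 CPM. The part of these markers in the results was not tested. The share of reads from mitochondrial genes was 2.64% to 5.12%. Replicates across lines are the only replicates. The p-values of a treatment therefore measure the spread between a Hep3B and a Huh7 library after the difference between the lines is taken out. In every edgeR fit the spread of a gene is also drawn toward that of all genes. A call means an adjusted p under 0.05 (Benjamini-Hochberg over all 16972 genes, edgeR's quasi-likelihood test). Changes are log2 changes with their standard error (SE).

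The mitotic genes as a whole were lower with sertraline in both lines, with and without XL413, and with XL413 alone they were close to control in Hep3B and a little lower in Huh7. Summed over the 60 genes, the level was 5875 CPM with both drugs, 5622 CPM with sertraline, 8068 CPM with XL413 and 8230 CPM in the control of Hep3B. In Huh7 the same sum was 3888 CPM with both drugs, 4623 CPM with sertraline, 6269 CPM with XL413 and 7237 CPM in the control. Relative to the control of its line, the sum stood at 71.4% with both drugs, 68.3% with sertraline and 98% with XL413 in Hep3B, and at 53.7%, 63.9% and 86.6% in Huh7.

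**Figure D1:**
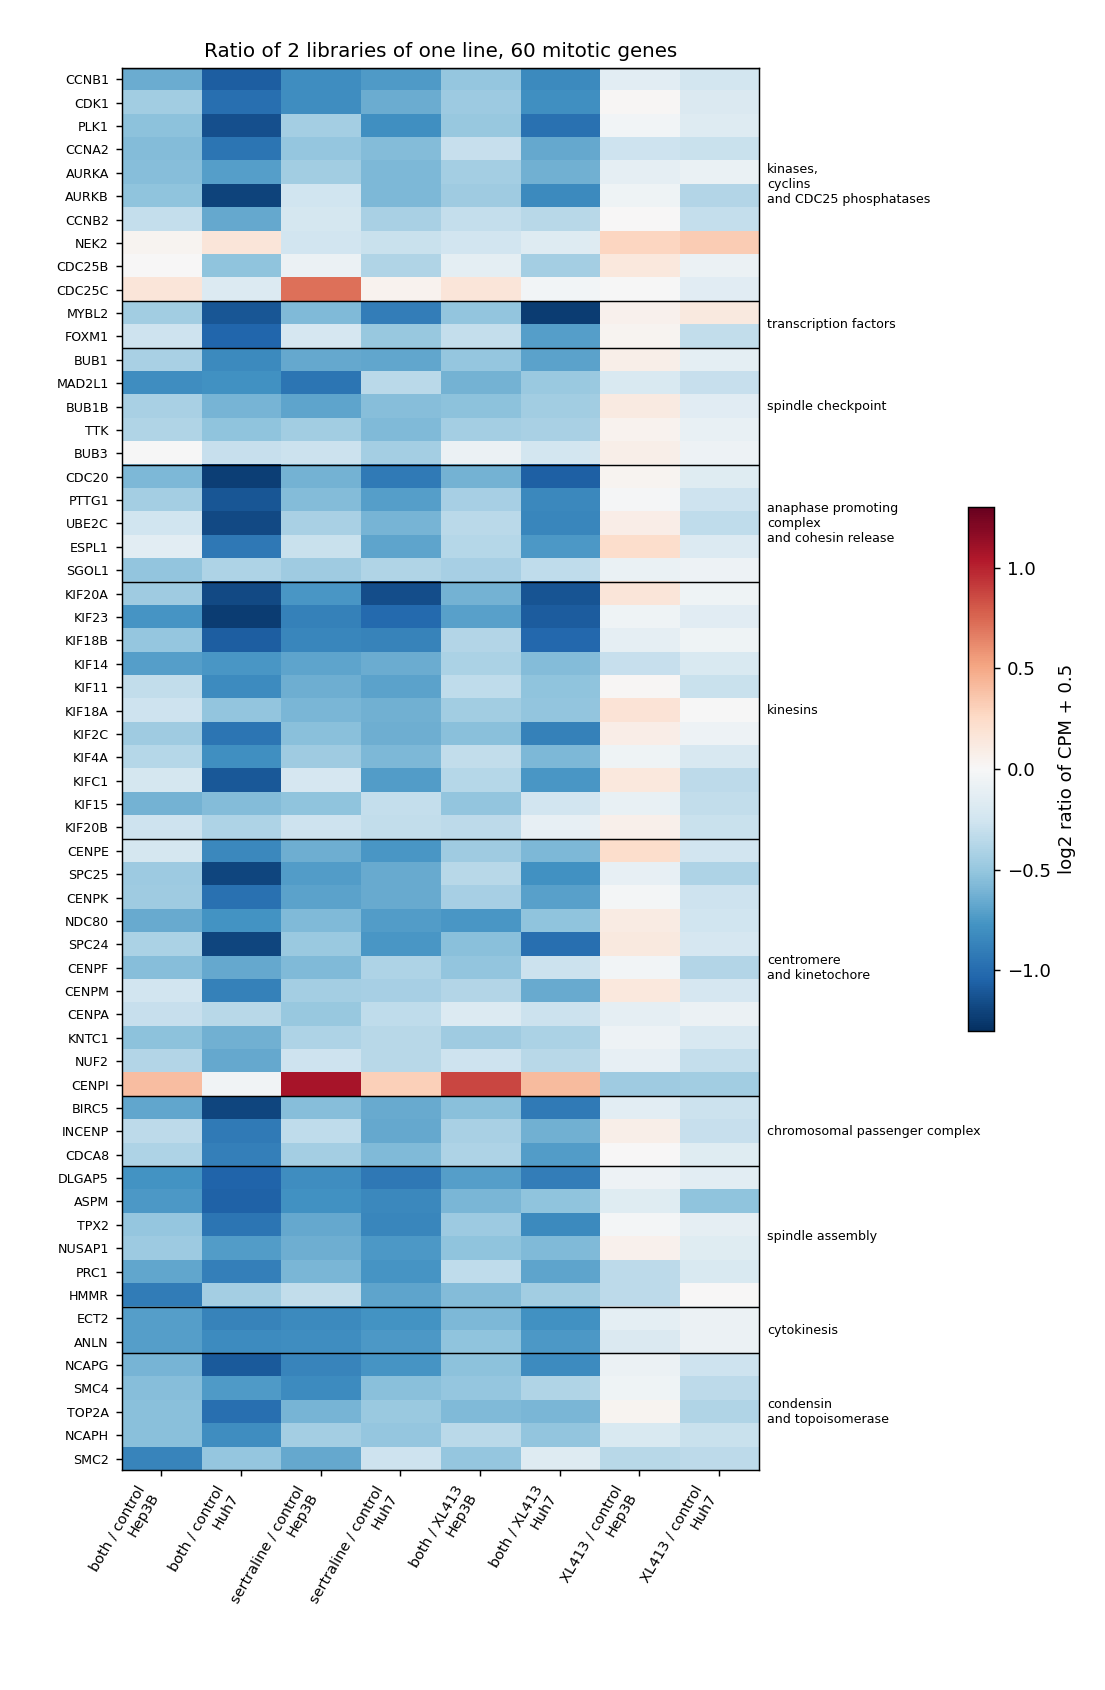
Heat map of the log2 ratio between 2 libraries of one line (CPM + 0.5) for each of the 60 genes, grouped by role; columns are the treatments compared in Hep3B and Huh7, blue is lower and red is higher in the first-named treatment. The 6 columns with sertraline on top are blue for most genes, with CENPI and CDC25C red in several of them, and the XL413 columns are pale.

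With sertraline against control, 24 of the 60 genes fell and 0 rose, where 1.94% of all genes tested fell and 2.96% rose. The estimate was below 0 for 58 of the 60, with a median of -0.60 against 0.01 for all genes tested. The estimates ran from -0.97 for KIF20A to 0.71 for CENPI. The genes that fell included spindle assembly and cytokinesis factors (5 of 6 and 2 of 2), kinesins (7 of 11) and checkpoint genes (3 of 5). The kinetochore list had 1 gene that fell of 11, the passenger complex 0 of 3 and the transcription factors 0 of 2, although the medians of these 3 lists were -0.48, -0.51 and -0.56. At an unadjusted p under 0.05 in edgeR, 3 of the 3 passenger genes and 1 of the 2 factors were below. The share of all genes at that p is not given, so these counts have no background beside them. The count depended on single libraries: leaving out the control gave 0 in the case of Huh7 and 1 in that of Hep3B, and leaving out the sertraline library gave 1 for Hep3B and 12 for Huh7. It was 45 in DESeq2 and 0 in a fit that ignored the difference between the lines.

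DLGAP5, which stabilises the microtubule fibres that hold chromosomes, had the smallest p. It stood at 44.4 CPM in Hep3B and 41.0 CPM in Huh7 with sertraline, against 78.0 and 78.5 CPM in the controls. The treated libraries of both lines were far below both controls, with a change of -0.88 ± 0.12 (SE, edgeR adjusted p = 0.0093). KIF23, the motor of the central spindle, had 39.9 CPM in Hep3B and 57.7 CPM in Huh7 with sertraline, against 73.7 and 116.5 CPM in the controls. Treated and control libraries did not overlap even across lines, and the change was -0.95 ± 0.14 (edgeR adjusted p = 0.0107). ECT2, which switches on RhoA at the cleavage site, had 149 and 97.0 CPM in Hep3B and Huh7 with sertraline, against 264 and 166 CPM in the controls. Its change was -0.80 ± 0.11 (edgeR adjusted p = 0.0102). ANLN, the scaffold of the contractile ring, had 156 and 104 CPM with sertraline in Hep3B and Huh7, against 273 and 176 CPM in the controls, a change of -0.78 ± 0.11 (edgeR adjusted p = 0.0107). ASPM, a spindle pole protein known from microcephaly, fell by 0.81 on the log2 scale. TPX2, which activates Aurora A on the spindle, NUSAP1 and PRC1, the bundler of the midzone, fell by 0.76, 0.69 and 0.68. HMMR stood at 41.1 and 19.6 CPM with sertraline in Hep3B and Huh7, against 51.6 and 31.8 CPM, and did not pass the test.

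**Figure D2:**
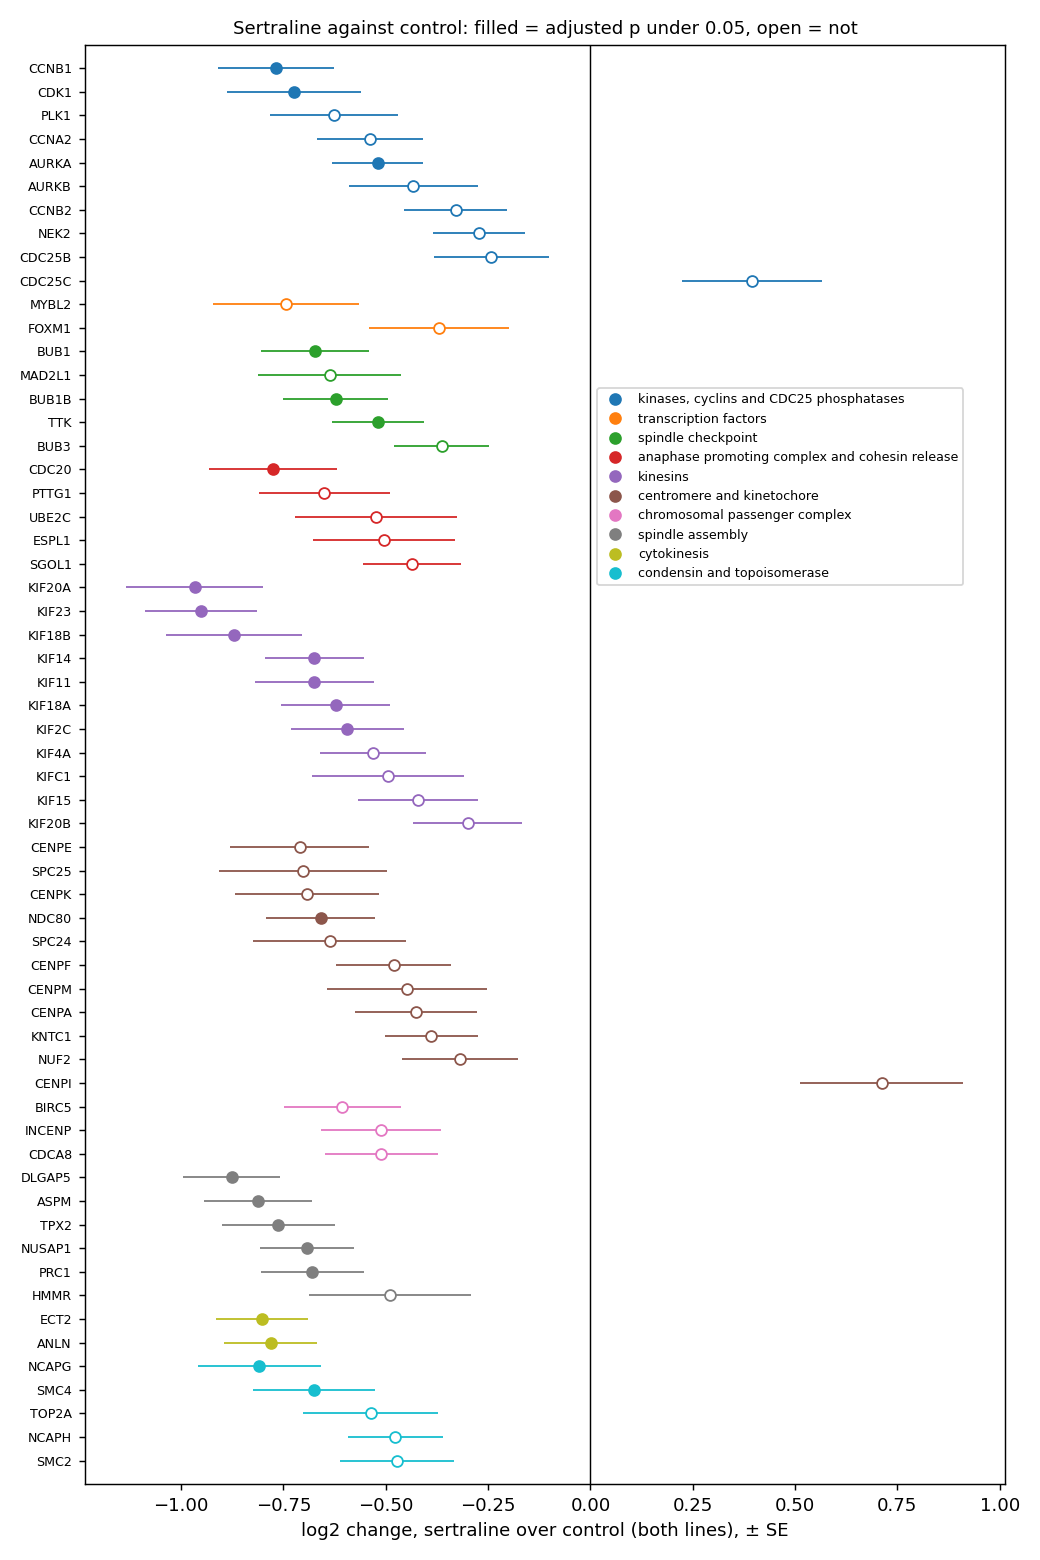
Log2 change of each of the 60 genes with sertraline over control, both lines together, with its standard error (horizontal axis), grouped by role from top to bottom; filled points passed the test and open points did not. All but CDC25C and CENPI lie left of 0, between -0.97 and -0.24.

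Among the engines of mitotic entry, CDK1 had 77.3 CPM in Hep3B and 92.0 CPM in Huh7 with sertraline, against 135.5 and 144 CPM in the controls. CCNB1, which encodes the cyclin partner of CDK1, had 137 and 165 CPM with sertraline in Hep3B and Huh7, against 239 and 275 CPM in the controls. CCNB1, CDK1 and AURKA, the spindle pole kinase, were the 3 genes of their list of 10 that fell, with changes of -0.77, -0.72 and -0.52. PLK1, the Polo-like kinase, had 165 and 85.3 CPM with sertraline in Hep3B and Huh7, against 224 and 148.5 CPM in the controls. Each treated library was below the control of its own line, but the change of -0.63 ± 0.16 missed the threshold (edgeR adjusted p = 0.0593). AURKB (-0.43 ± 0.16) and CCNB2 (-0.33 ± 0.13) also missed it. CDC25B (-0.24 ± 0.14), NEK2 (-0.27 ± 0.11) and KIF20B (-0.30 ± 0.13) had the 3 smallest changes of the 60.

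CDC25C, a phosphatase that activates CDK1, was 1 of the 2 genes with an estimate above 0. It stood at 53.9 CPM in Hep3B and 34.0 CPM in Huh7 with sertraline, against 32.7 and 32.8 CPM in the controls, so the higher value came from Hep3B. Its change was 0.39 ± 0.17 (edgeR adjusted p = 0.22). Its exons overlap those of FAM53C on the other strand, a gene with 23884 reads to 7848 for CDC25C over the 8 libraries. Whether the counting used the strand is not stated, and the part of FAM53C reads in the CDC25C value was not tested.

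The checkpoint genes BUB1, BUB1B and TTK (the kinase also called MPS1) delay anaphase until all chromosomes are attached. They fell by 0.67, 0.62 and 0.52 on the log2 scale. MAD2L1 (-0.64 ± 0.17) and BUB3 (-0.36 ± 0.12) did not pass. CDC20, the checkpoint's target and the activator of the anaphase promoting complex, had 146 and 139.9 CPM with sertraline in Hep3B and Huh7, against 224 and 265 CPM in the controls. It was the 1 gene of its list of 5 that fell, by 0.78. PTTG1, which encodes securin, had a change of -0.65 ± 0.16 (edgeR adjusted p = 0.0586). The core subunits of the complex itself are made throughout the cycle. Of 14 such genes 1 fell and 0 rose, their median being -0.18.

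Of the kinesins, KIF20A, which carries the passenger complex to the midzone, had 81.0 and 57.1 CPM with sertraline in Hep3B and Huh7, against 137 and 127 CPM. KIF20A fell by 0.97, KIF18B by 0.87, KIF14 by 0.67 and KIF11, the motor that separates the spindle poles, by 0.67. KIF18A, which damps chromosome movements, and KIF2C, which shortens microtubules, fell by 0.62 and 0.59. KIF20A shares exon bases with BRD8 and CDC23 on the other strand, which together had 30770 reads to its 22751. The condensin genes NCAPG and SMC4 fell by 0.81 and 0.68, while NCAPH, SMC2 and TOP2A, the topoisomerase that untangles sister chromatids, stood at -0.48, -0.47 and -0.54 and did not pass. BIRC5, the survivin subunit of the passenger complex, had a change of -0.61 ± 0.14 (edgeR adjusted p = 0.0507).

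At the kinetochore, NDC80, the subunit that grips microtubules, had 25.1 CPM in Hep3B and 33.2 CPM in Huh7 with sertraline, against 37.4 and 55.2 CPM in the controls. It was the 1 gene of the list that fell, by 0.66. CENPE, the motor of the kinetochore, had -0.71 ± 0.17 (edgeR adjusted p = 0.0537) and CENPF, a farnesylated protein of the outer kinetochore, -0.48 ± 0.14 (0.0922, edgeR adjusted p). CENPA, the histone H3 variant of centromeres, stood at 13 and 12.7 CPM with sertraline in Hep3B and Huh7, against 18.5 and 16.1 CPM in the controls. CENPA shares exon bases on its own strand with SLC35F6, which had 12183 reads to its 3325. Per kilobase of exon, the kinetochore list was the lowest of the 10 in the controls, with a median level of 9.74 CPM per kb in Hep3B and 8.14 in Huh7, where the transcription factors were at 81.7 and 71.9.

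The CENPI estimate pointed the other way. It encodes a subunit of the inner complex that binds CENPA nucleosomes, and stood at 61.6 CPM in Hep3B and 43.3 CPM in Huh7 with sertraline, against 29.04 and 34.8 CPM in the controls. After XL413 it stood at 38.6 and 33.7 CPM with sertraline, against 20.9 and 25.3 CPM without. In each of these 4 pairs the sertraline library was the higher. The change was 0.71 ± 0.20 without XL413 (edgeR adjusted p = 0.084) and 0.64 ± 0.20 after it (edgeR adjusted p = 0.178), so neither passed with both lines in the fit. CENPI overlaps no other annotated exon, and its pseudogene copy had 1 read in all 8 libraries.

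**Figure D3:**
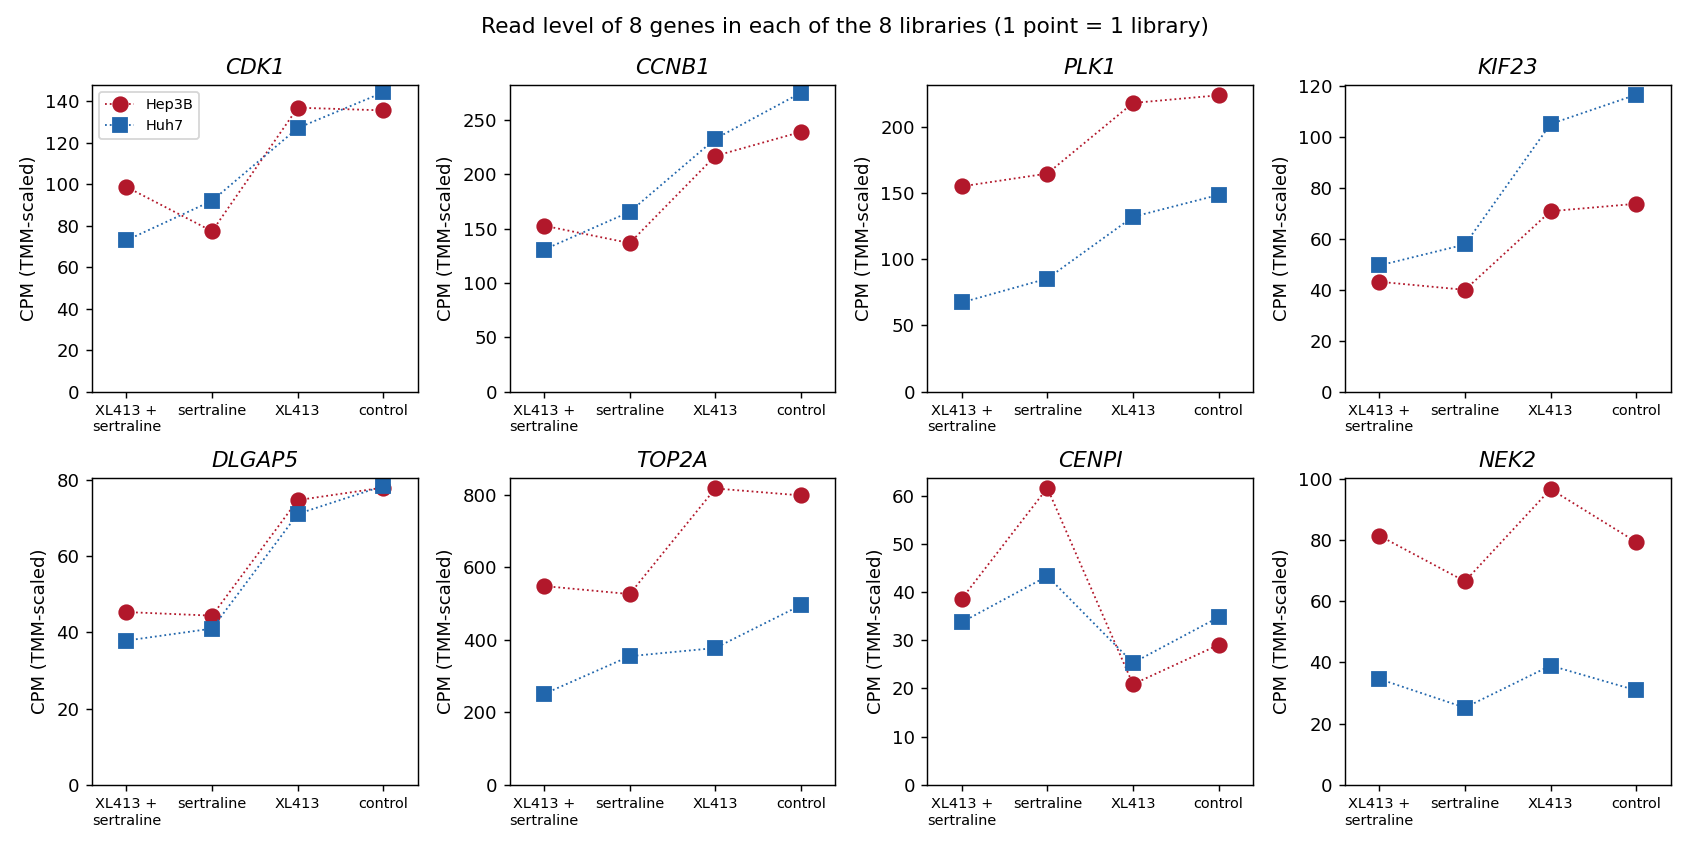
Level in CPM (vertical axis, from 0) of 8 of the genes in each library; red circles are Hep3B, blue squares are Huh7, each point is 1 library, and dotted lines only join the libraries of a line. CDK1, CCNB1, PLK1, KIF23, DLGAP5 and TOP2A are lower in the libraries with sertraline than in those without, within each line, CENPI is highest with sertraline alone, and NEK2 is highest with XL413 alone.

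Within each line, most of the genes fell. Each drug effect was estimated inside a line from the 2 libraries with the drug and the 2 without. The fit takes the other drug's effect as additive. No treatment is repeated inside a line. The SE and p-values rest on how closely the libraries follow this fit and on the spread that edgeR borrows from all genes. They do not measure variation between cultures of the same treatment. The same limit holds for XL413 inside a line and for the tests of a difference between the lines. Inside Hep3B, 53 of the 60 genes fell with sertraline and 2 rose, where 12.3% of all genes fell and 11.8% rose. Inside Huh7, 53 fell and 1 rose, where 13.6% of all genes fell and 14.3% rose. The 49 genes that fell in both lines left 11 that did not. Of all genes, the share that fell in both lines cannot exceed the 12.3% that fell inside Hep3B. The median change was -0.52 in Hep3B and -0.64 in Huh7, and the change was the more negative in Huh7 for 46 of the 60. CENPI rose in both, by 0.99 ± 0.11 in Hep3B (edgeR adjusted p = 9.3e-07) and by 0.36 ± 0.10 in Huh7 (edgeR adjusted p = 0.012). CDC25C rose inside Hep3B, by 0.45 ± 0.12 (edgeR adjusted p = 0.0096), and stood at 0.01 ± 0.12 in Huh7.

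In levels alone, with no model, 53 of the 60 genes had both sertraline libraries below both others in each line, against 12.3% of all genes. The 7 with an overlap in at least 1 line were CDC25B, CDC25C, CENPI, HMMR, KIF15, NEK2 and SMC2. The lines share no library, and the ratios of sertraline to control in Hep3B and Huh7 had a Pearson correlation of 0.72 across the 60 genes (Spearman 0.53), against 0.57 across all genes. CENPI and CDC25C lie far from the rest in these ratios. Within a line, the ratio without XL413 and the ratio after XL413 share no library either, and they correlated at 0.85 in Hep3B and 0.88 in Huh7 (Spearman 0.64 and 0.80). Across all genes the same Pearson correlations were 0.73 and 0.79. These are correlations across genes, which are not independent of each other.

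**Figure D4:**
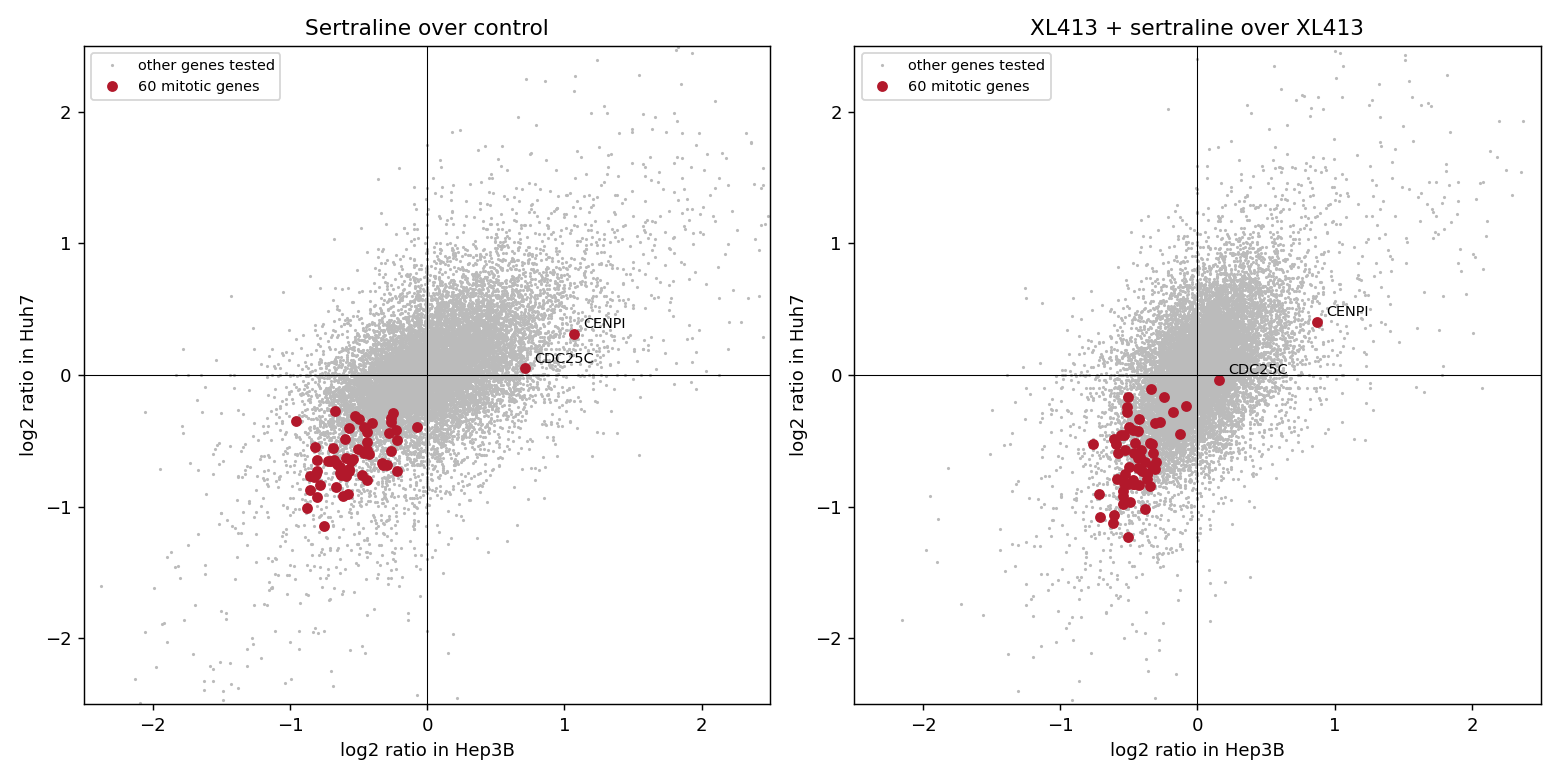
Log2 ratio (CPM + 0.5) in Hep3B (horizontal) and Huh7 (vertical) for sertraline over control on the left and for XL413 with sertraline over XL413 on the right; red points are the 60 genes, grey points the other genes tested, of which 51 and 15 fall outside the axes. Most of the red points lie together in the lower left, CENPI lies in the upper right of both panels, and CDC25C lies right of 0 close to the horizontal line.

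The lines differed in the size of the sertraline effect for 2 genes, both with a more positive change in Hep3B. These were CENPI, with a difference of 0.63 ± 0.15 (edgeR adjusted p = 0.019), and MYBL2, with 0.53 ± 0.14 (edgeR adjusted p = 0.0432). MYBL2, the B-MYB factor that drives mitotic genes, had 232 and 213 CPM with both drugs and with sertraline, against 330.4 and 318 CPM with XL413 and in the control of Hep3B. In Huh7 MYBL2 had 122 CPM with both drugs and 140.4 CPM with sertraline, against 286 CPM with XL413 and 263 CPM in the control. Of all genes, 2.57% had a more positive and 1.77% a more negative sertraline effect in Hep3B, and the share of the 60 genes called is close to this background. Both calls were lost when any 1 Huh7 library was left out, and 3 or 6 genes were called when a Hep3B library was left out.

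After XL413, the estimates for sertraline were again below 0 for most of the genes, and 4 passed. With both drugs against XL413 alone, 4 genes fell and 0 rose, where 0.271% of all genes fell and 0.666% rose. The 4 were DLGAP5 (-0.81 ± 0.12), KIF23 (-0.90 ± 0.14), ECT2 (-0.69 ± 0.11) and ANLN (-0.64 ± 0.11), with edgeR adjusted p of 0.0269, 0.0316, 0.0376 and 0.0474. For 58 of the 60 the estimate was below 0, and the median was -0.54. KIF23 stood at 43.1 CPM in Hep3B and 49.5 CPM in Huh7 with both drugs, against 70.8 and 105 CPM with XL413. CDC25C (0.06 ± 0.17), BUB3 (-0.16 ± 0.12) and NEK2 (-0.21 ± 0.11) had the smallest changes. The count was 0 without any 1 of the 4 libraries compared, and 33 genes passed in DESeq2. This comparison and the one of sertraline with control share no library, and the test of their difference, the interaction of the drugs, called 0 of the 60 genes. In that test 0% of all genes were called lower and 0% higher, and at an unadjusted p under 0.05 the numbers were 0 of the 60 and 140 of all genes. DESeq2 also called 0 of the 60. The interaction estimates of the 60 ran from -0.34 ± 0.24 (CDC25C) to 0.25 ± 0.20 (KIF11).

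XL413 alone gave 0 calls among the 60 genes when both lines were fitted at once, and 0% of all genes passed in either direction. At an unadjusted p under 0.05, edgeR gave 4 of the 60 and 1828 of all 16972 genes, a smaller share of the 60 than of all genes. DESeq2 called 0 of the 60. The median of the 60 was -0.11, and 53 estimates were below 0. The 4 were NEK2, a kinase of centrosome separation (0.31 ± 0.11), ASPM (-0.34 ± 0.13), SMC2 (-0.35 ± 0.14) and CENPI (-0.46 ± 0.20). NEK2 stood at 96.5 CPM in Hep3B and 38.9 CPM in Huh7 with XL413, against 79.3 and 30.8 CPM in the controls. CENPI stood at 20.9 and 25.3 CPM with XL413, against 29.04 and 34.8 CPM. BUB3 (-0.00 ± 0.11), KIF2C (0.01 ± 0.14) and CENPE (-0.01 ± 0.17) had the smallest changes. CDC7, the target of XL413, had 23.0 and 21.1 CPM with XL413 in Hep3B and Huh7, against 25.3 and 24.9 CPM in the controls.

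Fitted inside each line, XL413 gave most of its calls in Huh7. Inside Huh7, 20 of the 60 genes fell and 1 rose, where 8.99% of all genes fell and 11.6% rose, and 56 estimates were below 0 with a median of -0.22. Inside Hep3B, 2 fell and 2 rose, where 8.21% of all genes fell and 8.84% rose, and the median was 0.03. The share called in Hep3B is below the background of that line. In Huh7 the 5 with the smallest p were AURKB (-0.50 ± 0.10), the passenger complex kinase, UBE2C (-0.45 ± 0.10), which loads ubiquitin for the anaphase promoting complex, FOXM1 (-0.43 ± 0.10), TOP2A (-0.45 ± 0.10) and BIRC5 (-0.41 ± 0.10). Their edgeR adjusted p were 0.0011, 0.00228, 0.00365, 0.00388 and 0.00505. The genes that fell in Huh7 were 4 of 5 in the condensin list, 2 of 3 of the passenger complex and 4 of 11 at the kinetochore, against 1 of 11 kinesins. The replication genes, which act earlier in the cycle, had 16 of 28 that fell inside Huh7 and 0 inside Hep3B. There MCM2, POLA1 and RRM1 had an unadjusted p under 0.05 in edgeR, with estimates above 0 (0.29, 0.26 and 0.25) that were not called. The Huh7 count of 21 called genes fell to between 1 and 5 when any 1 Huh7 library was left out, and was 30 without any 1 Hep3B library. DESeq2 gave 13.

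NEK2 was higher with XL413 in both lines, by 0.29 ± 0.09 in Hep3B (edgeR adjusted p = 0.0412) and by 0.40 ± 0.10 in Huh7 (edgeR adjusted p = 0.0078). It was the 1 gene of the 60 with both XL413 libraries above both others in each line, and 0 of the 60 had both below. Of all genes, 7.15% were above and 6.53% below in each line. The 53 genes with both sertraline libraries below both others in each line could show neither order. The 60 therefore cannot be compared with all genes in this pattern. CENPI was lower with XL413 in both, by -0.58 ± 0.11 in Hep3B and -0.41 ± 0.10 in Huh7 (edgeR adjusted p = 0.00061 and 0.0082). The other 2 genes called in Hep3B were HMMR, a spindle protein that also binds hyaluronan (-0.47 ± 0.11), and CENPE (0.32 ± 0.10), with edgeR adjusted p of 0.0049 and 0.0367. The call of NEK2 and CENPE in Hep3B was lost without the low-count filter, in DESeq2, without any 1 Huh7 library, and without the Hep3B library of sertraline or of both drugs. In each of these cases 2 genes were called, both lower.

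The difference between the lines in the XL413 effect passed for 4 genes. It was more positive in Hep3B for UBE2C (0.57 ± 0.14, edgeR adjusted p = 0.0108), TOP2A (0.49 ± 0.14, edgeR adjusted p = 0.0361) and CENPE (0.49 ± 0.15, edgeR adjusted p = 0.0414), and more negative for HMMR (-0.59 ± 0.15, edgeR adjusted p = 0.0187). Of all genes, 3.94% were more positive and 4.96% more negative in Hep3B, so 4 of 60 is near the background. The estimate was nonetheless above 0 for 53 of the 60, with a median of 0.23 against -0.02 for all genes. TOP2A had 548 and 817 CPM with XL413 (with and without sertraline) in Hep3B, against 526 and 798 CPM without XL413. In Huh7 it had 250.4 and 377 CPM with XL413, against 354.5 and 495 CPM. In Hep3B each TOP2A value with XL413 was slightly above its partner without, and in Huh7 each was below it. HMMR had 27.3 and 40.5 CPM with XL413 (with and without sertraline) in Hep3B, against 41.1 and 51.6 CPM. In Huh7 HMMR had 23.3 and 32.0 CPM, against 19.6 and 31.8 CPM. The count ranged from 0 to 13 as 1 library was left out: it was 0 without the Huh7 sertraline or the Huh7 library with both drugs, 1 without the Huh7 control, 2 without the Huh7 XL413 library, 11 without the Hep3B XL413 library and 13 without the Hep3B control. It was 2 in DESeq2.

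**Figure D5:**
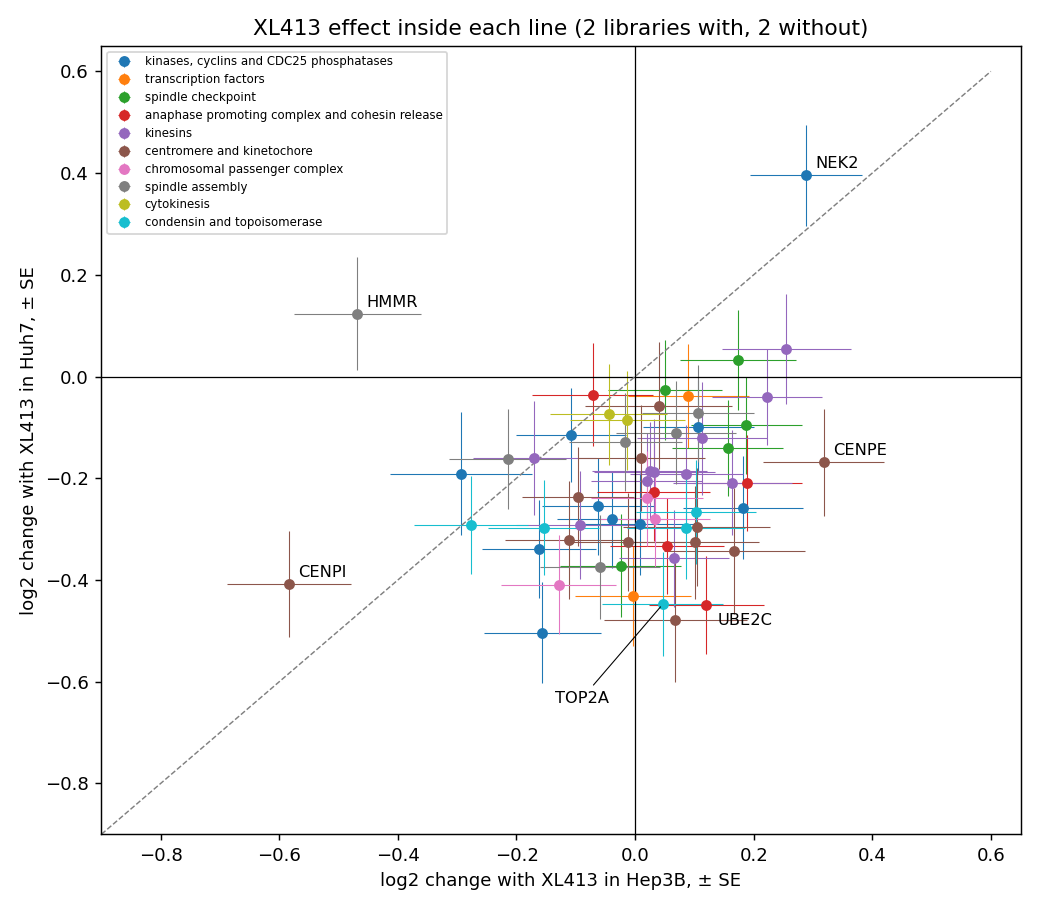
Log2 change with XL413 in Hep3B (horizontal) and in Huh7 (vertical), each with its standard error, for the 60 genes coloured by role; the dashed line marks equal change. The points gather below the dashed line, with a median of 0.03 in Hep3B and -0.22 in Huh7, NEK2 lies above 0 in both lines, CENPI below 0 in both, and HMMR alone is well below 0 in Hep3B and above 0 in Huh7.

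With both drugs against control, 44 of the 60 genes fell and 0 rose, where 4.37% of all genes fell and 4.84% rose. The median was -0.68 and 58 estimates were below 0. The lists with every member lower were the passenger complex (3 of 3), cytokinesis (2 of 2) and condensin and topoisomerase (5 of 5), followed by spindle assembly (5 of 6), checkpoint (4 of 5), kinesins (8 of 11), kinases and cyclins (7 of 10), cohesin release (3 of 5) and kinetochore (6 of 11). KIF23 had the largest fall, -1.002 ± 0.14 (edgeR adjusted p = 0.0117), and DLGAP5 the smallest p, -0.92 ± 0.12 (edgeR adjusted p = 0.0104). BIRC5 stood at 95.1 and 68.9 CPM with both drugs in Hep3B and Huh7, against 152 and 158 CPM in the controls, and fell by 0.93. AURKB stood at 88.4 and 62.6 CPM, against 127 and 145 CPM in the controls, and fell by 0.86. PLK1 fell by 0.83, to 155 and 67.2 CPM against 224 and 148.5 CPM. CDC25C (-0.02 ± 0.17), NEK2 (0.10 ± 0.11) and BUB3 (-0.16 ± 0.12) had the smallest changes. The count was 1 without the Huh7 control, 0 without the Hep3B control, 0 without the Huh7 library with both drugs and 26 without the Hep3B one. This comparison shares its control libraries with the comparisons of sertraline and of XL413 with control, so the 3 are not independent.

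Genes of the same processes outside the 60 were also mostly below control with sertraline, 66 of 70 without XL413. Of 70 other mitotic genes that could be tested, 27 fell and 0 rose with both drugs against control, with a median of -0.51. With sertraline against control 14 fell and 0 rose, with HJURP, ARHGAP11A, CDCA2 and NCAPG2 the 4 with the smallest p, at -0.75, -0.72, -0.71 and -0.68. With both drugs against XL413, 0 of the 70 passed and 41 had an unadjusted p under 0.05 in edgeR. For this count and that of the cohesin genes below, the share of all genes at that p is not given. MKI67, the Ki-67 gene used to mark dividing cells, stood at 302 and 284 CPM with sertraline in Hep3B and Huh7, against 448 and 456 CPM in the controls, and did not pass (-0.63 ± 0.23, edgeR adjusted p = 0.158). Of 9 cohesin genes 0 were called with sertraline against control, with a median of -0.24, and 1 had an unadjusted p under 0.05 in edgeR. Of 28 replication genes 2 fell, with a median of -0.49. CDKN1A, the p21 gene that stops the cycle, stood at 20.3 and 12.4 CPM with both drugs in Hep3B and Huh7. The controls had 5.11 and 4.67 CPM, and with both drugs against control it rose by 1.70 ± 0.34 (edgeR adjusted p = 0.0254). With XL413 alone against control its change was 1.38 ± 0.34 (edgeR adjusted p = 0.2435), which did not pass. Fitted inside each line, CDKN1A was called higher with XL413, by 0.68 ± 0.17 in Hep3B and 1.20 ± 0.18 in Huh7.

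The lines also differed in their level of these genes, in Hep3B over Huh7 across all treatments. Of the 60 genes 29 were higher and 6 were lower in Hep3B, where 31.4% of all genes were higher and 31.4% lower. The share called in either direction is close to that of all genes, and only the direction is uneven. The median change of the 60 was 0.26. KIF14, which recruits the cytokinesis kinase CIT, and NEK2 differed most, by 1.35 ± 0.09 and 1.33 ± 0.08 (edgeR adjusted p = 5.0e-06 and 3.8e-06). KIF14 ranged from 41.5 to 68.4 CPM in the 4 Hep3B libraries and from 15.5 to 26.6 CPM in the 4 Huh7 libraries, with no overlap. CENPF (1.09 ± 0.10), NUF2, a partner of NDC80 (1.03 ± 0.10), and CCNB2 (0.77 ± 0.09) had the next smallest p. CENPK (-0.69 ± 0.12), CDC25B (-0.51 ± 0.10), KIF23 (-0.49 ± 0.10), PTTG1 (-0.50 ± 0.11), NDC80 (-0.40 ± 0.09) and NCAPG (-0.37 ± 0.11) were the 6 lower in Hep3B. UBE2C (-0.00 ± 0.14), SGOL1 (-0.02 ± 0.08) and CDC20 (0.04 ± 0.11) had the smallest differences.

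The promoters of the genes share letters that the choice of genes did not use. The cell cycle homology element, TTTGAA or TTCGAA, is the site through which the MuvB core binds, and CCAAT is the site of NF-Y, which often stands upstream of it. The RefSeq promoter table (GRCh38.p14) holds 300 bases for 51 of the 60 genes, from 250 before to 50 after an annotated start. Either form of the homology element, on either strand, was present in 38 of the 51 genes (74.5%), against 19.5% of the 27305 genes in the table. CCAAT, on either strand, was present in 39 of 51 (76.5%), against 39.7% of all, and both together in 30 (58.8%), against 7.8%. The homology element began within the 50 bases before the start in 22 of the 51 (43.1%), against 3.4% of all genes. TTCGAA reads the same on both strands, and CCAAT can overlap either form by 1 letter. No entry was matched for AURKA, FOXM1, BUB3, TTK, UBE2C, CENPM, KNTC1, BIRC5 and TPX2. Some annotated starts, those of CENPI and PLK1 among them, lie inside the gene as the GENCODE 29 annotation draws it. A match is not evidence of binding. The stretches below show how the elements lie in 4 genes that fell with sertraline inside each line and in NEK2, with the homology element and CCAAT (or its reverse, ATTGG) in capitals.
PLK1 (chr16:23678769-23678888, + strand): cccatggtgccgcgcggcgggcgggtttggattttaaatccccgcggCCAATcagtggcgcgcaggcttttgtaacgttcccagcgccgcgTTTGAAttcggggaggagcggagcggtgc
CCNB2 (chr15:59105026-59105145, + strand): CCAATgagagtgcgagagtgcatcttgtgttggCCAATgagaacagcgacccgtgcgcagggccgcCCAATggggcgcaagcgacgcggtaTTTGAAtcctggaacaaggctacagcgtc
CDC20 (chr1:43358861-43358980, + strand): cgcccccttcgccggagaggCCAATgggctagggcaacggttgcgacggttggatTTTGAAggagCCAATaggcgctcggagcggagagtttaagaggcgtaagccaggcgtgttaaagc
KIF23 (chr15:69414229-69414348, + strand): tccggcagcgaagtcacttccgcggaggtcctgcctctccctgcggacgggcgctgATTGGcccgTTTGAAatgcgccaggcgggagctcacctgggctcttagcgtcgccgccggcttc
NEK2 (chr1:211675622-211675741, - strand): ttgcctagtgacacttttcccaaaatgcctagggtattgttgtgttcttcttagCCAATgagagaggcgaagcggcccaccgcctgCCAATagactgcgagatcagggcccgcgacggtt

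In PLK1, CCNB2, CDC20 and KIF23 the homology element follows at least 1 CCAAT in the 120 bases shown. The NEK2 stretch has CCAAT in 2 places and no homology element. With sertraline against control, the median change was -0.62 in the 38 genes with the homology element, 18 of which fell, and -0.64 in the 13 without it, 3 of which fell. For CCAAT the median was -0.63 in the 39 genes with it, 15 of which fell, and -0.64 in the 12 without it, 6 of which fell. CENPI, whose annotated start lies inside the gene, is counted among the genes without either element. These differences were not tested.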

How the data were processed

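Read counts per gene for 8 poly(A) libraries were used as the authors deposited them, whole numbers with no normalization. Per the submitters' processing notes, HISAT2, HTSeq and the GRCh38 (hg38) genome were used, and the libraries are stranded per the labels. Neither the strand setting nor the annotation release of the counting is stated. The 60 genes, their role lists and the other lists were chosen with earlier results of these data known.

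Genes with low counts were removed with edgeR's filterByExpr, which left 16972, and libraries were scaled by TMM. Counts were fitted with edgeR 4.0.16 (quasi-likelihood) in R 4.3.3. The treatment comparisons used line plus treatment, with 3 residual degrees of freedom. The effects inside a line used XL413 and sertraline terms for each line, with 2. To these edgeR adds prior degrees of freedom estimated from all genes, so small p-values do not rest on a gene's own libraries alone. DESeq2 1.42.0 was an alternative, beside an adjusted p of 0.10, DESeq2 size factors, no filter, no line term, line-specific effects and leaving out each library. The replicate number is the cell line, so the line term is the pairing. Deviations of same-line libraries from their group means correlated at 0.888 to 0.942. Each group holds 1 library of each line, so these values reflect the difference between the lines and cannot check the pairing. SE is the log2 change divided by the square root of the F statistic. Ratios inside a line used a pseudocount of 0.5 CPM. The fits were tested on simulated counts: large changes were recovered, smaller differences between the lines were mostly missed, and false calls were more frequent than the 0.05 threshold states, so calls near it are less firm than their adjusted p. No replicate exists inside a line and treatment, and separate cultures are not stated.

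Named genes were 25 genes fixed by role and, in each comparison, the 5 with the smallest p in each direction, the 3 with the smallest change and any called against the majority. Exon lengths and overlaps come from GENCODE 29. Of the 60 genes, 19 share exon bases with a gene on the other strand, and in 10 of these the partner had over 5% of the gene's reads.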

Additional observations from a re-analysis of the deposited data

Results flagged for a closer look

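The sertraline effect differed between the lines, Hep3B minus Huh7 on the log2 scale, by 0.63 for CENPI and by 0.53 for MYBL2 (edgeR adjusted p = 0.019 and 0.0432). The XL413 effect differed by 0.57 for UBE2C, by 0.49 for TOP2A, by 0.49 for CENPE and by -0.59 for HMMR (edgeR adjusted p = 0.0108, 0.0361, 0.0414 and 0.0187). Each comes from a test of the difference itself. The 4 libraries of each line are different treatments, so none is a replicate of another, and variation between cultures of a treatment is not measured. The calls depended on single libraries, as given above, and their share of the 60 genes was close to that of all genes.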

How the results depend on the processing

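All counts are of the 60 genes, called in either direction. With sertraline against control (24 called), an adjusted p under 0.10 gave 43, no filter on low counts 41, DESeq2 45 and line-specific drug effects 60. With both drugs against XL413 (4 called) the same alternatives gave 18, 27, 33 and 55. Without the replicate block, that is without the cell line as the pairing, the counts were 0 for sertraline against control, 0 for both drugs against XL413 and 0 for both drugs against control (44 called). Line-specific effects gave 8 for XL413 against control (0 called). For XL413 inside Hep3B (4 called) no filter gave 2 and DESeq2 gave 2, and inside Huh7 (21 called) DESeq2 gave 13. For the difference between lines, an adjusted p under 0.10 gave 5 for sertraline (2 called) and 13 for XL413 (4 called), where DESeq2 gave 2. Leaving out 1 library gave 0 to 21 for sertraline against control, 0 to 5 for both drugs against XL413 and 0 to 43 for both drugs against control. It gave 2 to 6 for XL413 inside Hep3B, 1 to 30 inside Huh7, 0 to 6 for the line difference with sertraline and 0 to 13 for that with XL413. Where a treatment was left with 1 library, that library was assumed to vary like the others. The causes were not tested. The counts of Hep3B against Huh7 (35 called) and of sertraline inside Hep3B (55) and Huh7 (54) stayed within 1.5 times under the alternatives run. In the uncalled comparison of XL413 with control, leaving out 1 library turned the sign of the log2 change of 18 named genes: CDK1 (-0.18 to 0.0057), PLK1 (-0.28 to 0.080), AURKB (-0.44 to 0.000642), FOXM1 (-0.37 to 0.088), MYBL2 (-0.12 to 0.28), BUB1 (-0.13 to 0.074), BUB3 (-0.097 to 0.098), TTK (-0.096 to 0.033), CDC20 (-0.25 to 0.13), PTTG1 (-0.32 to 0.031), KIF11 (-0.29 to 9.4e-04), KIF20A (-0.17 to 0.27), KIF23 (-0.21 to 0.0080), NDC80 (-0.22 to 0.056), TPX2 (-0.19 to 0.044), CDC25B (-0.14 to 0.21), KIF2C (-0.11 to 0.13) and CENPE (-0.21 to 0.20). CDC25B turned to -0.0048 without the filter, and KIF2C to -0.0026 with DESeq2 size factors, -0.024 without the filter and -0.0026 in DESeq2.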
